A study of Mus musculus with 6 samples.

Results

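The genes described here encode receptor chains for cytokines of the common gamma chain family, together with the kinase and the transcription factors that carry their signal. They were chosen by name and number 10: the receptor chains Il2ra, Il2rb, Il2rg, Il7r, Il4ra, Il15ra and Il21r, the kinase Jak3, and the factors Stat5a and Stat5b. Of 45263 probes used from an Illumina mouse bead array, 22 were annotated to 9 of these 10 genes. No probe was annotated to Il2rg, which encodes the common gamma chain itself, and that gene was not analysed here. Of the 22 probes, 16 probes of 7 genes were tested, because they were detected on 3 or more of the 6 arrays. Detected means a detection p under 0.05, which compares a signal with the negative controls of its own array.

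The samples were natural killer T (NKT) cells, T lymphocytes with an invariant receptor for lipids presented by CD1d. Mature cells carrying CD44 and NK1.1 were taken from the thymus of male C57BL/6 mice, and both populations share these features. One population carried CD103 at the surface (CD103+, 3 arrays) and the other did not (CD103-, 3 arrays). CD103 is the integrin alpha chain that binds E-cadherin. No treatment, transgene or age is given in the labels, and the 3 arrays of each population are described as biological replicates.

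Cytokines of this family bind receptors that share the common gamma chain. IL-2 and IL-15 also share the beta chain encoded by Il2rb, and each adds a private alpha chain, encoded by Il2ra or Il15ra. IL-7, IL-4 and IL-21 each pair the common chain with one chain of their own, encoded by Il7r, Il4ra and Il21r. The common chain carries the kinase JAK3, and activated receptors phosphorylate STAT proteins, above all STAT5A and STAT5B for IL-2, IL-7 and IL-15. In the thymus IL-7 supports early T cell precursors, and IL-15 supports the mature NKT cells that carry NK1.1.

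Within this set the 1 probe that passed the test belonged to Il7r, which encodes the IL-7 receptor alpha chain, and it was higher in CD103+ cells. All 5 Il7r probes had the 3 CD103+ arrays above the 3 CD103- arrays, by 0.64 to 1.21 on the log2 scale, and 1 of the 5, not the brightest, passed over all probes. That call was lost with the replicate number as a block (limma adjusted p = 0.0630) and in 5 of 6 fits that left out 1 array. It was also lost with array brightness as a covariate (limma adjusted p = 0.235). Tested probes of the IL-2 and IL-15 receptor chains had negative differences in the main fit, and none passed. The log2 difference was -0.66 for Il2rb and -0.90 for the brighter Il2ra probe, without overlap of the populations. The second Il2ra probe (-0.20) and both tested Il15ra probes overlapped. That of Il2rb turned to 0.49 after median scaling over all probes. No measured probe of Il15ra, Il21r, Jak3 or Stat5a passed.

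The promoter of Il7r and that of Il2ra are shown because their probes without overlap had differences of opposite sign, though that of Il2ra did not pass, and because the binding motif of the STAT factors, spelled TTCNNNGAA, can be read in them directly. Sequences are from RefSeq on build GRCm38.p6, 5′ to 3′ on the gene's own strand, and stop where the annotated gene begins. Capitals mark a match to the motif, which reads the same on both strands.
Il7r, chr15:9529942-9530126, minus strand: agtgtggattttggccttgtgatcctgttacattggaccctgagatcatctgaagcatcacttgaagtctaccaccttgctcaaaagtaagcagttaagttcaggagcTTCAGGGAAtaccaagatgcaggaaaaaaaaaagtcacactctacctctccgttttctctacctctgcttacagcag
Il2ra, chr2:11642542-11642791, plus strand: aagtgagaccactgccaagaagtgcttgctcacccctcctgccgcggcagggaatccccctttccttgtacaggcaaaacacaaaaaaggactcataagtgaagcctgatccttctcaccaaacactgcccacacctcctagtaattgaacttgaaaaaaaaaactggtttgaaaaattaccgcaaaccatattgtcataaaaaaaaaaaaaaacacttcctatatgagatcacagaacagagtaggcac
The Il7r match starts 142 bases before the start of transcription used for that window. Windows of 250 bases were found for 9 of the 10 genes, 12 windows in all, and 1 of the 12 (8.33%), that of Il7r, held a match. Over all 32851 windows 7.02% held one, so the share among these genes was near that of promoters in general. A match describes letters only, and factor binding was not measured.

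Array brightness differed: the mean signal was 501.6 to 825.9 for the CD103+ population, and 526.1, 277.4 and 276.5 for CD103- arrays 1, 2 and 3. The share of detected probes ranged from 34.0% to 40.5%. Signals were corrected for background, brought to a common distribution by quantile normalization and logged (base 2), and log2 differences below are CD103+ minus CD103- on that scale. They were tested with limma, with Benjamini-Hochberg adjustment over 17462 probes, and passing means an adjusted p under 0.05. Of these probes 206 passed (1.18%), 162 higher and 44 lower in CD103+ cells, against 65 higher and 83 lower after scaling to the median of the probes detected on all 6 arrays, 155 and 87 after cyclic loess, 44 and 24 after median scaling centred on all probes, and 163 and 94 in the authors' centred values. Median scaling over all probes gave 7143 higher and 11 lower, with the median of all tested probes at 0.96. A fit blocked on replicate number called 83. A gene was represented by its brightest tested probe where 1 value per gene is given. In sorted populations fewer cells that carry a transcript cannot be told apart from less of it per cell, and permuting 3 against 3 arrays exactly gives no p below 0.1 for a single probe.

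Il7r lies on the minus strand of chromosome 15, from 9506159 to 9529941 on GRCm38.p6. Its brightest probe, ILMN_2680827, had normalized log2 signals of 13.58, 13.51 and 13.59 on CD103+ arrays 1, 2 and 3 and of 12.97, 12.95 and 12.86 on CD103- arrays 1, 2 and 3. All CD103+ arrays lay above all CD103- arrays, and within each population the arrays were close together (13.56 ± 0.04 against 12.92 ± 0.06, SD, n = 3). The log2 difference was 0.64 (SE 0.130, 95% interval 0.33 to 0.94, limma adjusted p = 0.0786), which did not pass. The scanner signal of this probe, before any normalization, was 12701 to 21070 on CD103+ arrays and 3027 to 8301 on CD103- arrays, without overlap. Scanner signals also carry the brightness of each array. By them Il2rb had a log2 difference of 0.76 and the Il2ra probes 0.20 and 0.26, opposite in sign to their normalized differences.

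The Il7r probe ILMN_2659739 had log2 signals of 11.67, 11.66 and 11.65 in CD103+ cells and of 10.66, 10.67 and 10.70 in CD103- cells. The spread within a population was 0.01 and 0.02 (SD, n = 3), and Il7r was 1.98-fold higher by this probe (log2 difference 0.99, SE 0.127, limma adjusted p = 0.0172). The difference lay between 0.93 and 1.17 in all alternatives but median scaling over all probes (2.13, or 1.17 relative to the median of all tested probes). In the fit blocked on replicate number its adjusted p was 0.0630. Leaving out CD103+ array 1, 2 or 3 gave adjusted p of 0.137, 0.0839 and 0.0950 at differences of 0.98 to 1.0, leaving out CD103- array 2 or 3 gave 0.0603 and 0.0573, and without CD103- array 1 the probe passed at 0.0213. With array brightness as a covariate the probe did not pass (1.0, limma adjusted p = 0.235), nor after centred median scaling (1.17, adjusted p = 0.556). Over 24 alternatives it passed in 13, with adjusted p from 1.99e-04 to 0.556.

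The other 3 Il7r probes did not pass. ILMN_1255750 had log2 signals of 10.81, 11.23 and 11.10 in CD103+ cells and of 9.29, 10.21 and 10.01 in CD103- cells (log2 difference 1.21, SE 0.258, limma adjusted p = 0.0899). ILMN_1237567 had 11, 11.34 and 11.15 against 9.71, 10.59 and 10.43 (0.92, adjusted p = 0.158). ILMN_2975500 had 7.98, 8.47 and 7.99 against 6.77, 7.68 and 7.34 (0.88, adjusted p = 0.195). On these 3 probes CD103- array 1 was the lowest of the 6 arrays and array 2 the highest of each population, a pattern that the 2 brighter probes did not have. Without CD103- array 1 the differences of these 3 probes were 0.94, 0.65 and 0.63, and ILMN_1255750 then passed (adjusted p = 0.0440). ILMN_1237567 and ILMN_1255750 are annotated to cloned cDNA records and the other 3 to the RefSeq mRNA, so the probes may not all read the same Il7r transcripts.

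**Figure D1:**
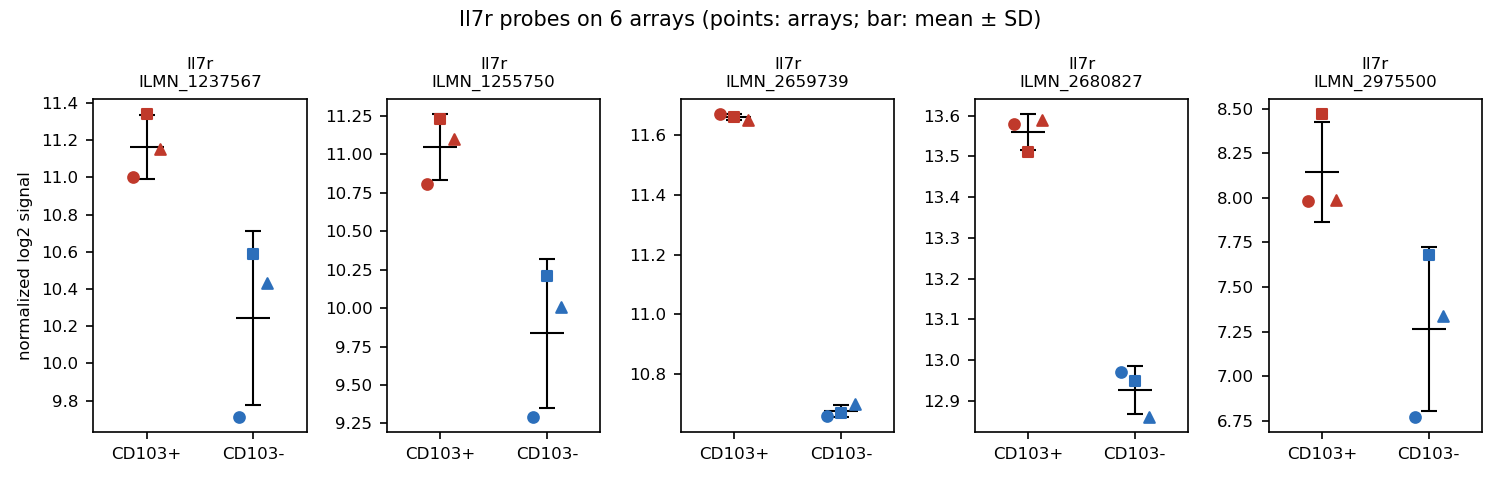
Normalized log2 signal (y axis, a separate scale for each panel) of the 5 Il7r probes in CD103+ (red) and CD103- (blue) cells. Circles, squares and triangles are arrays 1, 2 and 3, and bars give the mean ± SD (n = 3); in every panel the 3 red points lie above the 3 blue points.

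Agreement of this kind was also counted over other genes with many probes, a comparison added after the Il7r values were seen. Of 100 genes with at least 5 tested probes, 3 (3%) had no overlap between the populations on any probe, all with CD103+ above: Il7r with 5 probes, Itgae, the gene of the sorted integrin chain, with 6, and Ifitm1 with 5. These names were chosen after their values were seen. The criterion follows the pattern already seen for Il7r, and the probes of a gene share the same 6 arrays. The share is therefore a description and not a test of Il7r. Averaged over its 5 probes, Il7r had log2 signals of 11.01, 11.24 and 11.10 in CD103+ cells and of 9.88, 10.42 and 10.27 in CD103- cells. In a fit on such gene means, added after the data were examined, Il7r passed (log2 difference 0.93, SE 0.170, limma adjusted p = 0.0416), as did 2.12% of 8999 genes (1.61% with CD103+ higher). With the replicate block its adjusted p was 0.05002, and leaving out CD103+ array 1, 2 or 3 gave 0.151, 0.161 and 0.154. Leaving out CD103- array 2 or 3 gave 0.0527 and 0.0882, and without CD103- array 1 it was 0.0312.

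The genes whose brightest probe followed that of Il7r most closely over the 6 arrays, by the mean absolute difference of values centred on each gene's own mean, were Sidt1 (0.042), Nxt2 (0.044) and St6gal1 (0.045). Their log2 differences were 0.71, 0.70 and 0.63 (limma adjusted p = 0.0687, 0.0616 and 0.0852). Sidt1 encodes a transmembrane protein of RNA uptake, Nxt2 a factor of nuclear RNA export and St6gal1 a sialyltransferase. The likeness is over 6 arrays and describes these arrays only.

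Il2rb, the beta chain of the IL-2 and IL-15 receptors, lies on the same chromosome 15, from 78479256 to 78511621, and was read by 1 probe, ILMN_1246541. It had log2 signals of 9.70, 9.41 and 9.56 in CD103+ cells and of 10.04, 10.50 and 10.13 in CD103- cells, so that all CD103- arrays lay above all CD103+ arrays. The log2 difference of -0.66 (SE 0.176, 95% interval -1.08 to -0.25) did not pass (limma adjusted p = 0.152, and 0.0441 to 1 over 24 alternatives, passing in 2). It was 0.49 after median scaling over all probes, where the median of all tested probes itself lay at 0.96, and -0.47 relative to that median.

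The ratio of 2 probes within an array is not changed by a constant factor on that array. Quantile normalization is not such a factor and can change the ratio. Whether array brightness affects the ratios was not tested. On background-corrected signals without any scaling between arrays, the log2 ratio of Il7r probe ILMN_2659739 to Il2rb was 1.97, 2.21 and 2.10 on CD103+ arrays and 0.63, 0.17 and 0.56 on CD103- arrays. All 5 Il7r probes gave ratios that did not overlap between the populations, with mean differences of 1.06 to 1.87. The ratio of Jak3 probe ILMN_1219155 to Il2rb differed by 0.27 and that of Stat5a probe ILMN_2976191 to Il2rb by -0.07, both with overlap. Ratios of the second Jak3 probe and of the second Stat5a probe were not computed. The pair of Il7r and Il2rb was chosen after their values were seen, for differences of opposite sign without overlap, so the ratios are a description and carry no test.

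Il2ra, the alpha chain that gives high affinity for IL-2, was dim. Its probe ILMN_1233474 had log2 signals of 5.42, 5.11 and 5.42 in CD103+ cells, detected on 2 of 3 arrays, and of 5.70, 6.36 and 6.59 in CD103- cells, detected on all 3. The populations did not overlap, and the log2 difference of -0.90 (SE 0.245, limma adjusted p = 0.160) did not pass. With the undetected array set to its lowest detected level of 5.31 the difference was -0.83. Without CD103- array 1 the probe passed (difference -1.15, adjusted p = 0.0253), the only alternative of 23 in which it did. The second Il2ra probe, ILMN_1234973, had 5.25, 5.12 and 5.64 against 6.04, 5.29 and 5.29, with overlap and a difference of -0.20 (adjusted p = 0.741).

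Il2ra is also a marker of regulatory T cells. Of 8 genes listed for that cell type 6 were measured and none passed limma's test, with a median log2 difference of -0.33. At an unadjusted p under 0.05 were Ctla4, an inhibitory receptor, and Gpr83, at -0.87 and -0.92, named after their values were seen. The summed level of the 6 was 800 to 949 on CD103+ arrays and 793 to 1000 on CD103- arrays. Their defining factor Foxp3, named after its values were seen, was detected on all 6 arrays, at 7.80, 7.99 and 8.01 in CD103+ cells and 7.49, 7.99 and 7.62 in CD103- cells.

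Il15ra binds IL-15 and presents it to neighbouring cells. Its brighter tested probe, ILMN_1249759, had log2 signals of 6.08, 5.65 and 6.10 in CD103+ cells and of 6.05, 7.01 and 6.48 in CD103- cells, with overlap (log2 difference -0.57, 95% interval -1.19 to 0.05, limma adjusted p = 0.370). ILMN_1227502 had 5.70, 5.21 and 5.80 against 5.76, 6.32 and 7.04, also with overlap (-0.80, adjusted p = 0.317). The 3 other Il15ra probes were detected on 1 or 2 arrays each and were not tested, with log2 signals of 4.61 to 6.11.

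Il21r, the private chain of the IL-21 receptor, was dim, though both of its tested probes were detected on all 6 arrays. ILMN_2603242 had log2 signals of 6.44, 6.61 and 6.22 in CD103+ cells and of 6.54, 7.04 and 7.07 in CD103- cells, with overlap (log2 difference -0.46, 95% interval -0.93 to 0.00, limma adjusted p = 0.332). ILMN_1259867 had 5.93, 5.77 and 5.63 against 5.54, 6.52 and 5.98, with overlap (-0.24, adjusted p = 0.699), and its other probe was not detected on any array. Il4ra, the alpha chain of the IL-4 receptor, had 1 probe that was not detected on any array, with log2 signals of 4.66 to 5.21, where the lowest detected level was 5.19 to 5.64. This sets an upper level for that probe and does not show that the transcript was absent.

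Jak3, the kinase bound to the common gamma chain, was detected on all arrays by both of its probes. ILMN_1219155 had log2 signals of 8.35, 8.40 and 8.78 in CD103+ cells and of 8.92, 8.67 and 9.02 in CD103- cells, with overlap (log2 difference -0.36, 95% interval -0.78 to 0.06, limma adjusted p = 0.397). ILMN_3006451 had 7.93, 7.38 and 7.77 against 8.11, 7.75 and 8.0, with overlap (-0.26, 95% interval -0.71 to 0.19, adjusted p = 0.563). The intervals leave room for differences of either sign up to these bounds.

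Stat5a, which encodes one of the closely related STAT5 factors, was read by a pair of probes that pointed in opposite directions. ILMN_2976191, the brighter, had log2 signals of 7.47, 6.82 and 7.60 in CD103+ cells and of 7.70, 7.79 and 8.27 in CD103- cells, without overlap (log2 difference -0.62, SE 0.255, limma adjusted p = 0.316). ILMN_2976188 had 6.19, 5.84 and 6.27 against 5.82, 5.49 and 4.80, also without overlap but with CD103+ above (0.73, adjusted p = 0.288), and was detected on 1 CD103- array. With the undetected arrays at their lowest detected level this difference was 0.44. The direction for Stat5a therefore depended on the probe. Stat5b, which lies next to Stat5a on chromosome 11, had 1 probe, not detected on any array, with log2 signals of 4.48 to 4.72.

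**Figure D2:**
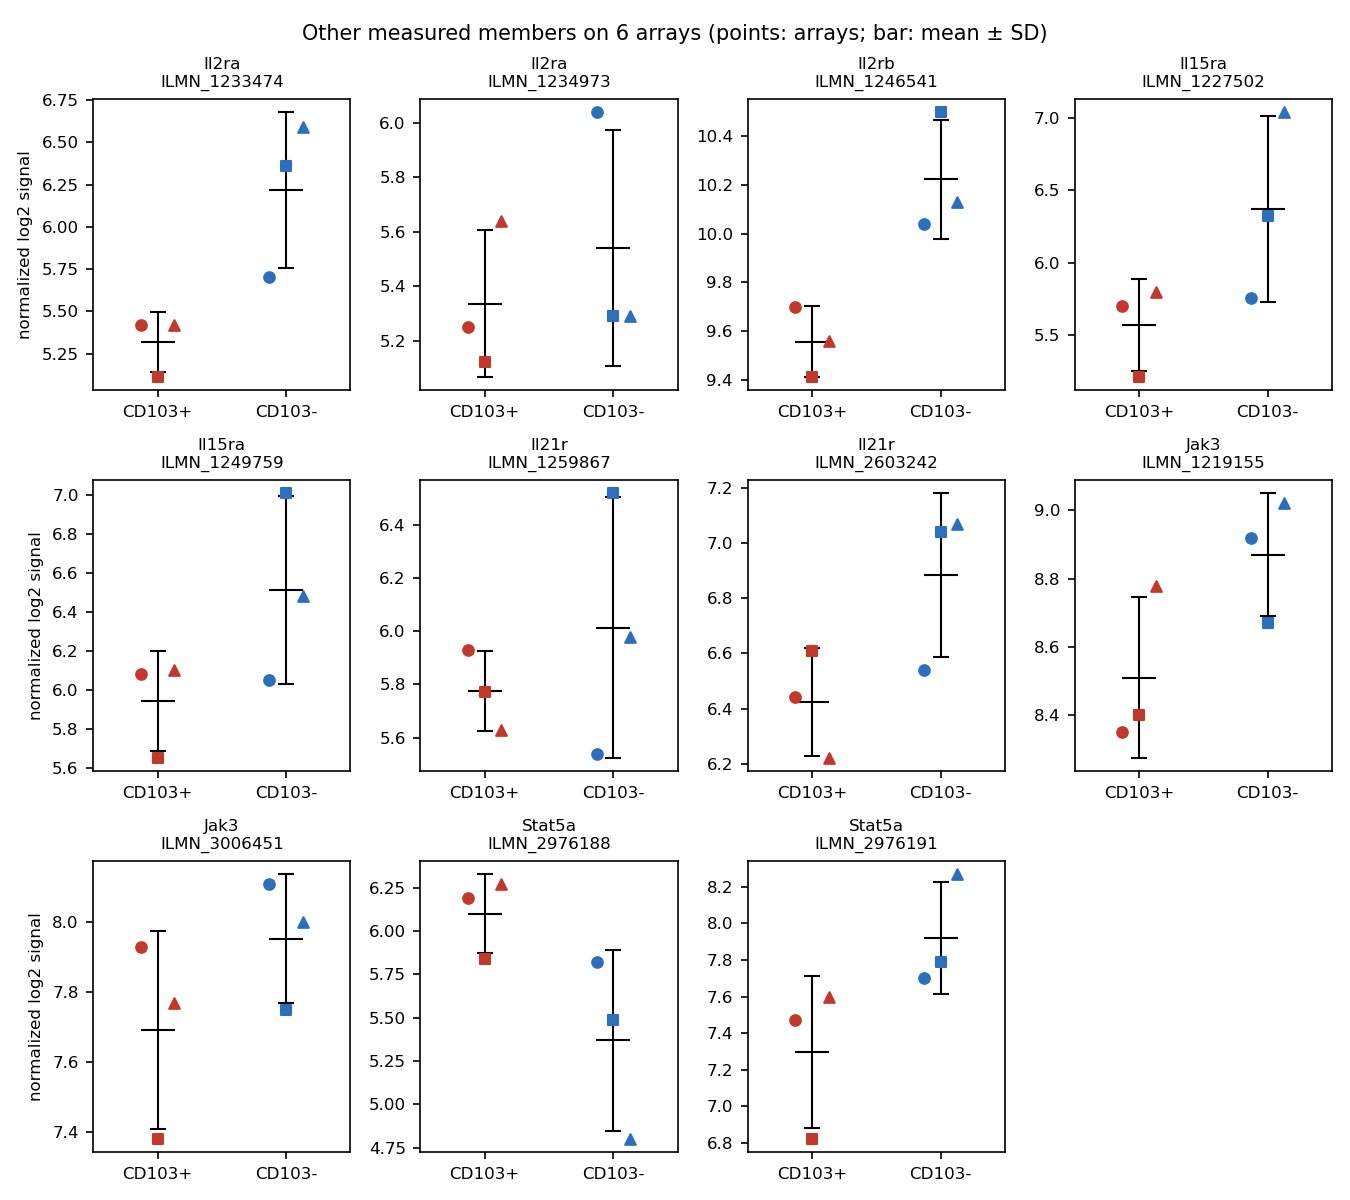
Normalized log2 signal (y axis, a separate scale for each panel) of the 11 tested probes of Il2ra, Il2rb, Il15ra, Il21r, Jak3 and Stat5a in CD103+ (red) and CD103- (blue) cells. Circles, squares and triangles are arrays 1, 2 and 3, and bars give the mean ± SD (n = 3); the populations part without overlap for Il2rb, 1 Il2ra probe and both Stat5a probes, the latter in opposite directions.

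Over the 16 tested probes 1 passed, against 1.18% of all tested probes, and 9 had no overlap of the populations, against 21.9%. Of the 9, 5 belonged to Il7r and so come from the same gene. By the brightest probe of each of the 7 measured genes none passed limma's test (1.38% of 8999 genes did), 4 had an unadjusted p under 0.05 (14.2% of genes), namely Il7r, Il2rb, Il2ra and Stat5a, and those same 4 genes had no overlap (23.2% of genes). The median log2 difference of the 7 genes was -0.57, against 0.05 over all genes, with 6 of the 7 at negative values. These 7 of the 10 genes are those that passed the detection filter.

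**Figure D3:**
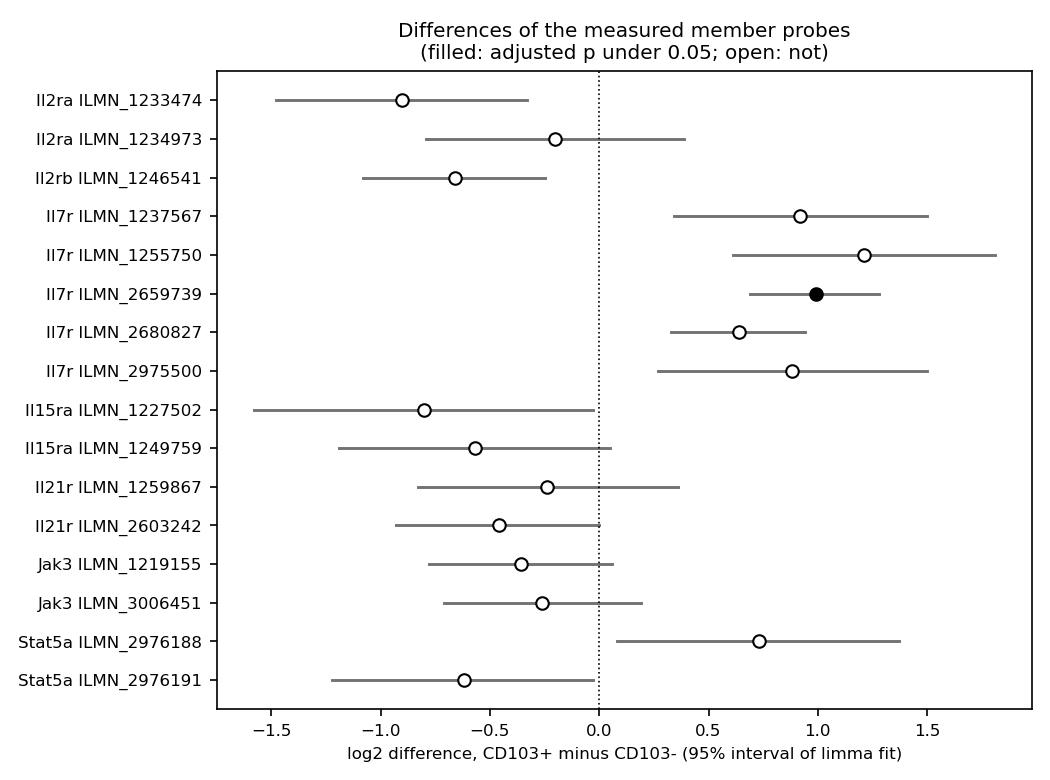
Log2 difference between CD103+ and CD103- cells (x axis) with its 95% interval from the limma fit for each of the 16 tested probes (rows). The filled point is the Il7r probe that passed (0.99), and the intervals of all 5 Il7r probes lie above 0, while that of Il2rb lies below 0.

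The other genes of the pathway were taken as 4 lists with 43 genes, of which 33 were measured. Il2 was higher and none was lower among them, against 1.16% higher and 0.222% lower over all genes, and the median log2 difference was 0.03. Among the cytokines, Il2, the growth factor read by Il2ra and Il2rb, had log2 signals of 7.70, 8.11 and 7.66 in CD103+ cells and of 6.23, 5.87 and 5.98 in CD103- cells. All CD103+ arrays lay at least 1 log2 unit above all CD103- arrays, and Il2 was 3.48-fold higher (log2 difference 1.80, SE 0.183, limma adjusted p = 0.00693, and 0.0472 with the replicate block). It did not pass against CD103- array 1 alone (1.66, adjusted p = 0.0682) with array brightness as a covariate (1.42, adjusted p = 0.169) or after centred median scaling (1.51, adjusted p = 0.136).

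Il4, the cytokine bound by Il4ra, had log2 signals of 10.72, 10.81 and 10.78 in CD103+ cells and of 11.85, 11.48 and 11.50 in CD103- cells (log2 difference -0.84, limma adjusted p = 0.0632). The populations did not overlap, and Il4 passed in 9 of 24 alternatives. Il15, which supports NK1.1+ NKT cells, had on its brightest probe 6.43, 6.92 and 6.63 against 5.01, 4.98 and 5.83, where 1 of the CD103- arrays was above background (1.39, or 1.08 with undetected arrays at their lowest detected level, adjusted p = 0.0664). Its other tested probes lay at -0.52 and 0.74, so the direction for Il15 depended on the probe. Il7, Il9 and Il21 were not detected on any array.

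Il15 and Il15ra are also made by myeloid cells, and markers of macrophages and dendritic cells moved with CD103. Of 15 listed markers 12 were measured and 10 were higher in CD103+ cells, among them Lyz2, C1qb and Vcam1. Over all genes 1.16% were higher. Of the 12, 7 were not detected on any CD103- array, against 158 of all 8999 genes. These 7 entered the test only through the CD103+ arrays, so their place in the count was favoured in advance. The summed level of the 12 was 8290 to 9410 on CD103+ arrays and 2200 to 2640 on CD103- arrays. The integrin genes Itgam and Itgax were not detected on any array. The 2 measured markers that did not pass were Cst3 (log2 difference 0.21) and Csf1r (0.31). Cst3 was bright in both populations (mean log2 signals of 11.25 and 11.03) and weighs heavily in the sums, above all on CD103- arrays. Of 8 markers of NK cells, which also carry Il2rb, 5 were measured and Klri2 and Klri1 were higher. Klri2 had a log2 difference of 2.42 (limma adjusted p = 0.00453). Klri1 was not detected on any CD103- array and was at least 1.34-fold higher, taking the lowest detected level as its bound there (limma adjusted p = 0.0136, 0.0565 with the replicate block, passing in 11 of 24 alternatives). The 5 NK markers had summed levels of 5090 to 5750 and 3740 to 4650, and Ncr1, Eomes and Kit were not detected on any array. Of 8 markers of CD4 CD8 double-positive thymocytes, a stage that carries little IL-7 receptor, 5 were measured and none passed. Cd8b1, named after its values were seen, had an unadjusted p under 0.05 in limma at -0.38. The summed levels were 1500 to 2110 on CD103+ arrays and 2190 to 2550 on CD103- arrays, and Cd8b1, the brightest, weighs heavily in them. Rag1, Dntt and Arpp21, named after their values were seen, were lowest on array 2 of each population, where the dimmer Il7r probes were highest. Cd4 and Cd8b1 did not have this pattern. A link between these patterns was not tested. Of 6 B cell markers 1 was measured and did not pass (57.0 to 91.3 against 21.8 to 81.6). The part of other cells in the values of the receptor genes was not tested. The 9 NKT identity markers were all detected on all 6 arrays and none passed limma's test. Zbtb16, the lineage factor of NKT cells, had an unadjusted p under 0.05 in limma (log2 difference -0.68, named after its values were seen). The summed levels were 60400 to 63700 on CD103+ arrays and 56900 to 58600 on CD103- arrays. Cd3g, Cd3e and Cd3d were the brightest (mean log2 signals of 14.59, 13.86 and 13.83 in CD103+ cells) and weigh heavily in these sums. The median log2 difference of the 9 was -0.1, and 3 of them had positive differences.

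The 9 measured partner genes hold the kinases Jak1, Jak2 and Tyk2, other STAT factors and adaptor proteins. By the brightest probe none passed limma's test and none had an unadjusted p under 0.05. The 3 with the lowest p were Stat6, the factor of IL-4 signalling (log2 difference 0.32), the adaptor Grb2 (-0.44) and Stat3, the factor of IL-21 signalling (-0.16). A dimmer Tyk2 probe, ILMN_2455701, named after its values were seen, lay at -1.03 without overlap and did not pass (limma adjusted p = 0.120). The other Tyk2 probes lay at -0.31 and, on the brightest, at 0.04. Of 9 measured inhibitors none passed and 1 had an unadjusted p under 0.05. This was Socs3, which blocks cytokine receptors and JAK kinases, at 8.77, 9.03 and 8.70 in CD103+ cells and 8.38, 8.16 and 7.96 in CD103- cells (0.67, adjusted p = 0.145). The phosphatase gene Ptpn2 lay at 0.35 and the ubiquitin ligase gene Cblb at -0.29. Cish and Socs2, inhibitors that STAT5 itself induces and that are named here after their values were seen, lay at -0.05 (95% interval -0.41 to 0.32) and 0.10 (-0.22 to 0.43).

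Of 12 measured STAT5 target and survival genes none passed by the brightest probe, and 1 had an unadjusted p under 0.05 in limma. This was Tnfrsf18, a costimulatory receptor, with a difference of -0.59 (adjusted p = 0.240) and -0.54 on its second probe. Xbp1, a factor of the secretory pathway, lay at 0.29. Bcl2, the survival factor maintained by IL-7 and IL-15, had 11.25, 10.79 and 11.03 in CD103+ cells and 11.61, 11.34 and 11.31 in CD103- cells on its brightest probe (-0.39, adjusted p = 0.350). All 6 Bcl2 probes had negative differences, from -1.17 to -0.27. One of them, ILMN_2682162, singled out after its values were seen, had 8.86, 8.98 and 8.79 against 10.19, 10.13 and 9.82 and passed (-1.17, SE 0.158, limma adjusted p = 0.0202). With the replicate block the adjusted p of that Bcl2 probe was 0.0565, and it did not pass without CD103+ array 1, 2 or 3 (0.140, 0.0772 and 0.113) or without CD103- array 2 (0.0685). Nor did it pass in limma with array brightness as a covariate (-1.38, adjusted p = 0.184) or after centred median scaling (-0.97, adjusted p = 0.883).

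**Figure D4:**
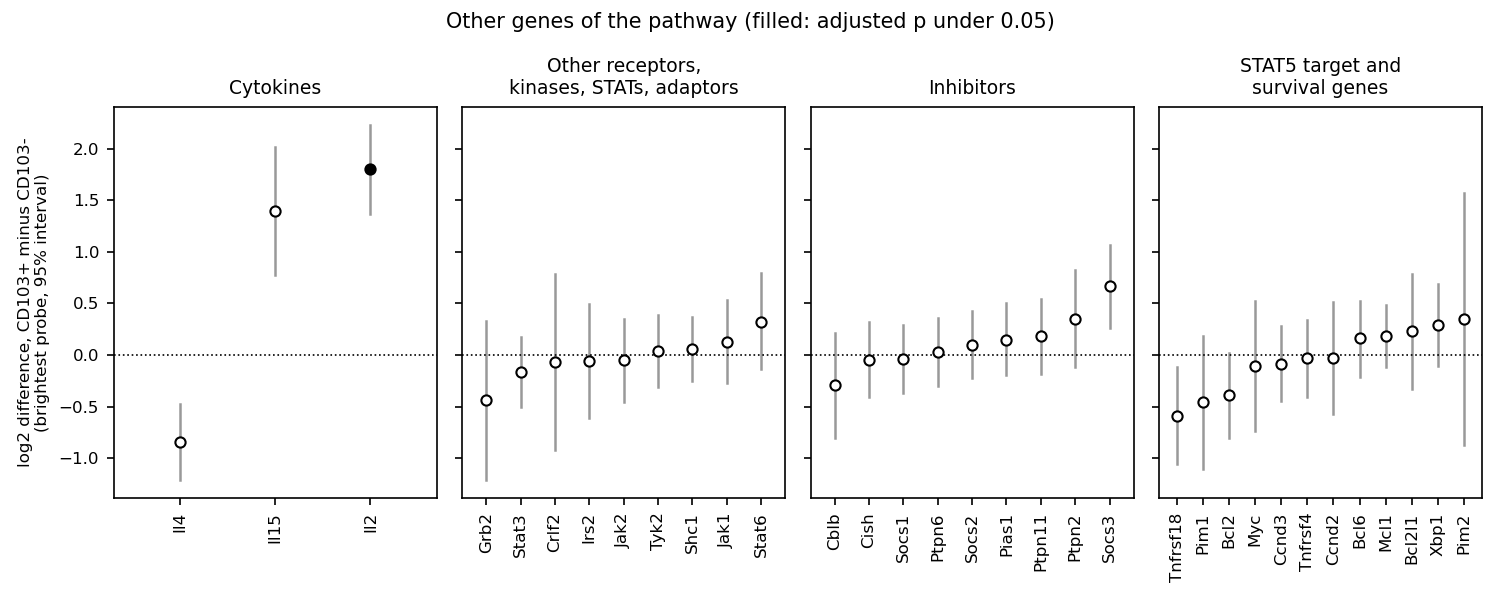
Log2 difference between CD103+ and CD103- cells (y axis) by the brightest probe of the 33 measured genes of the pathway, in 4 lists, with 95% intervals from the limma fit. The filled point is Il2 (1.80), and most genes of the other 3 lists lie close to 0, with Socs3 (0.67) and Tnfrsf18 (-0.59) farthest from it.

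The authors' deposited log2 values gave the same direction for Il7r, with more calls. In them the differences of the 5 Il7r probes were 0.56 to 1.39, and 4 of the 5 passed the same limma test, with the brightest probe at an adjusted p of 0.108. The median of all tested probes lay at 0.13 in these values. Centred on it, 3 of the 5 passed, and the brightest lay at 0.43 (limma adjusted p = 0.226). For Il2rb and the brighter Il2ra probe the authors' values gave -0.47 and -0.62, neither of which passed. Across all alternatives the 5 Il7r probes kept a positive difference, from 0.43 to 2.36.

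**Figure D5:**
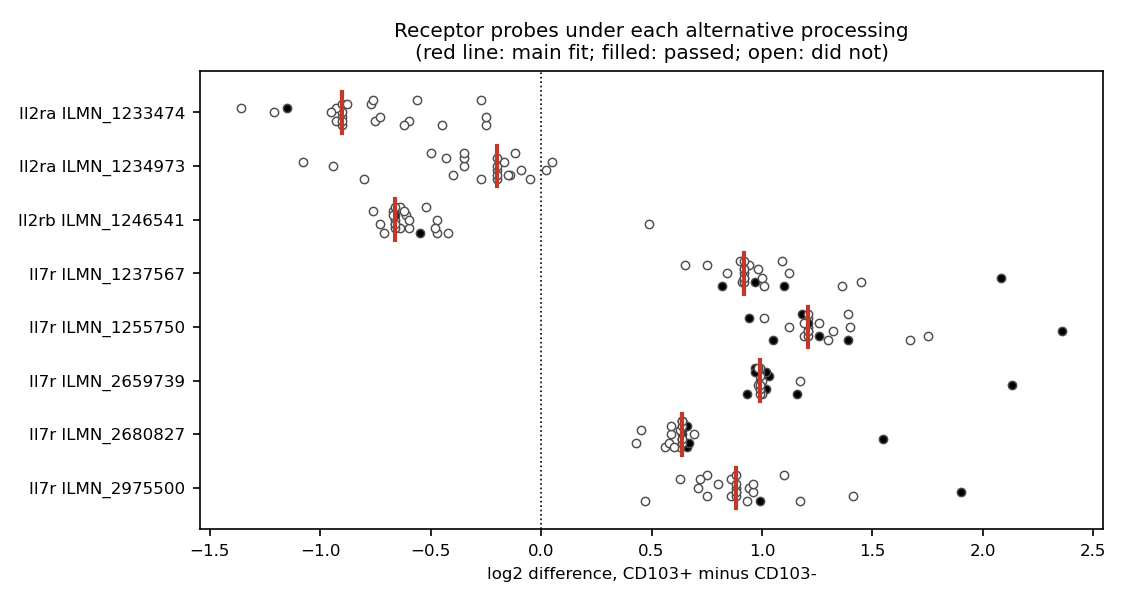
Log2 difference between CD103+ and CD103- cells (x axis) of the Il2ra, Il2rb and Il7r probes (rows) under each alternative processing (points, filled where the probe passed) and in the main fit (red line). All Il7r points lie above 0, and the isolated Il2rb point at 0.49 is median scaling over all probes, which lifted the median of all probes to 0.96.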

How the data were processed

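Biotin-labelled cRNA prepared from total RNA was measured on Illumina arrays, per the labels. The deposited intensity values are 1 signal per probe and array without normalization, per the file headers. Beside each stands another deposited value, which the file headers name a detection p. A second table holds the authors' log2 values, with a scaling not given in the sources used here. Of 45281 probes, 18 with shifted values were left out. Probes were named from the array's annotation and a mouse gene table, with 1 symbol for 34874, several for 18 and none for 10371. Background correction and quantile normalization used the neqc function of limma 3.58.1 under R 4.3.3, at offset 16, which infers the background from the detection p. Probes with a detection p under 0.05 on 3 or more of the 6 arrays entered the tests, in total 17462 probes and 8999 genes. CD103+ minus CD103- was fitted with lmFit and eBayes, two-sided, and the procedure was tested on simulated data. The number of arrays limits the precision.

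Arrays of the same replicate number correlated in their deviations from the population mean (0.170, 0.125 and 0.305 across probes, against -0.231 to 0.0824 for different numbers). The labels state no pairing, and the main fit assumed none. Because of these correlations, an alternative fit blocked on replicate number is given where it changes a call. Deviations from a population mean cancel within that population. The correlations therefore depend on each other and do not establish a pairing. Named genes were all members, the pathway genes past the threshold and up to 3 per list with the lowest p, the 3 genes most like the member with the lowest p, and up to 3 marker genes past the threshold per list; exceptions are marked. Members and lists were chosen with earlier results of these data known. Alternatives changed background, scaling, offset, filter, variance model, weights, pairing, arrays and threshold. Median scaling over probes detected on all 6 arrays and gene means were chosen after seeing the data. So was the count over genes with at least 5 tested probes.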

Additional observations from a re-analysis of the deposited data

How the results depend on the processing

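All 5 Il7r probes kept a positive difference under every alternative run, while the calls moved. The count of probes past the threshold was 206, of tested genes of the set 0 by the brightest probe, of their probes 1, and of other pathway genes 1. In the same order the counts were 324, 2, 5 and 2 without background correction, 243, 1, 2 and 2 with normexp without the detection p, 274, 1, 3 and 3 with an offset of 50, 273, 1, 2 and 3 with the strict filter, 369, 2, 5 and 3 with an intensity trend and robust fit, and 397, 1, 2 and 2 with array weights. They were 7154, 1, 5 and 16 after median scaling over all probes, where the median of all tested probes lay at 0.96, and 68, 0, 0 and 0 centred on that median. The authors' values gave 313, 0, 4 and 2, or 257, 0, 3 and 2 when centred, and cyclic loess gave 242, 0, 1 and 2. The replicate block gave 83, 0, 0 and 1, array brightness as a covariate 7, 0, 0 and 0, and the bright arrays alone (CD103- array 1 as the only control, assumed to vary like the CD103+ arrays) 50, 0, 0 and 0. At an adjusted p of 0.01 the counts were 60, 0, 0 and 1, and at a minimum log2 difference of 1 they were 182, 0, 0 and 1. Leaving out 1 array in turn gave 52 to 860 probes, 0 to 1 genes of the set, 0 to 3 of their probes and 1 to 2 pathway genes; the highest probe count was without CD103- array 1, where Il2ra was the gene that passed. Means over all probes of a gene gave 1 gene of the set (Il7r) and 2 pathway genes (Il2 and Il4), of which Il4 did not pass with the block (adjusted p = 0.0828). Among single probes the block ended the calls of Il7r ILMN_2659739, Bcl2 ILMN_2682162 and Klri1 (adjusted p = 0.0565) and of no other named gene.

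Signs turned for values that did not pass. After median scaling over all probes they were 0.02 (Il2ra ILMN_1234973), 0.49 (Il2rb), 0.23 (Il15ra ILMN_1249759), 0.45 and 0.47 (Il21r), 0.76 and 0.78 (Jak3), 0.42 (Stat5a ILMN_2976191), 0.26 (Il4), 1.0 (Stat3), 0.85 (Cblb), 0.51 (Tnfrsf18) and 0.73 (Bcl2 ILMN_1249021). Stat3 also lay at 0.04 centred and 0.03 in the authors' values, and Stat5a ILMN_2976188 at -0.08 after scaling on probes detected on all 6 arrays. With array brightness as a covariate Il15ra lay at 0.03 and 0.06 and Il21r ILMN_1259867 at 0.19; the latter lay at 0.28 on the bright arrays alone and 0.02 without CD103- array 2, and Il2ra ILMN_1234973 at 0.05 without CD103- array 1. Leaving out 1 array in turn gave -0.35 to 0.05 for that Il2ra probe and -0.47 to 0.02 for that Il21r probe. The causes were not tested. Il2ra, Il15ra and Il21r lay within about 2 log2 units of the lowest detected level, which limits what their values can show.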
